A study of Homo sapiens with 6 samples.

Results

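The comparison described here sets PA-1 cells given a RIPK4 expression plasmid against PA-1 cells given the empty vector, each read as 1 library of sequenced RNA. PA-1 is an established human line from an ovarian teratocarcinoma with many traits of embryonal stem cells. Both groups took 8 µg of pCDNA3.1-based plasmid and were collected at 48 h, so a transfection of the same amount and length is shared by the 2 groups. Beside them stand 3 more plasmid libraries of the same amount and time (RIPK1, RIPK2 and RIPK3) and 1 library of cells treated with 200 ng of the ligand Wnt3a for 16 h, whose labels do not say if an empty plasmid was given as well. Between Wnt3a and the other libraries, ligand, time and plasmid cannot be told apart. Members are the genes with a mean of at least 1 RPKM (reads scaled to gene length and library size) over all 6 libraries, which left 11880 of the 20494 genes of the table once RIPK4 itself was set aside. Just inside that limit lay AOC2, with a mean of 1.002 RPKM, and just outside it PLEKHN1, with 0.9997. With 1 library per group there is no replicate, no spread and no test, so every difference below is between these libraries.

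RIPK4 is a serine/threonine kinase with ankyrin repeats, known for its part in the differentiation of the epidermis, and it has been reported to phosphorylate dishevelled proteins and so to act on the Wnt pathway. In canonical Wnt signalling a ligand binds Frizzled and LRP receptors, dishevelled blocks the destruction complex of AXIN, APC and GSK3, and beta-catenin then accumulates and enters the nucleus. There it joins the DNA-binding factors of the TCF/LEF family at their targets. Many of those targets, among them AXIN2, NKD1, NOTUM and RNF43, feed back to damp the pathway, while in embryonal cells others are homeobox factors of the primitive streak and the posterior body such as CDX1, CDX2, MSX1 and MIXL1. The Wnt3a library is therefore given beside each member, as a reading of the same genes under a ligand of that pathway.

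The 4 promoters are shown because the genes they precede had the largest differences among Wnt pathway members with an entry in the RefSeq promoter table used here. They run from 250 bases before to 50 bases after the annotated start, 5′ to 3′ on the gene's strand, in GRCh38.p14. Capitals mark a TCF/LEF core, searched on both strands in 4 spellings. These are CTTTGAA with its variant ending in AT, CTTTGAT, and the pair ending in TA and TT, CTTTGTA with CTTTGTT. The last spelling is also a core of SOX factor sites. CDX2 lies at chr13:27969266-27969565 on the minus strand, DACT1 at chr14:58633811-58634110 on the plus strand, MIXL1 at chr1:226223414-226223713 on the plus strand and MSX1 at chr4:4859415-4859714 on the plus strand.
CDX2: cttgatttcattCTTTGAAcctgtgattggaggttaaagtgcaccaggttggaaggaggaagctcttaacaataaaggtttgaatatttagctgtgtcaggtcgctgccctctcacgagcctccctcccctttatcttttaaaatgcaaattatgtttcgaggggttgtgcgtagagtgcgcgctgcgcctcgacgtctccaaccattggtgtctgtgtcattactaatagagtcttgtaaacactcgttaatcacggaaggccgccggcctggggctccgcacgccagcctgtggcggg
DACT1: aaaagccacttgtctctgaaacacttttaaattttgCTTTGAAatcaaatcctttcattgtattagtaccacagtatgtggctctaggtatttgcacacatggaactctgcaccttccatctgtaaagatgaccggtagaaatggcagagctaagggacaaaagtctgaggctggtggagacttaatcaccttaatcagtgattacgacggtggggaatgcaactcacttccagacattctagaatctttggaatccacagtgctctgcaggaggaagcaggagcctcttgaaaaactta
MIXL1: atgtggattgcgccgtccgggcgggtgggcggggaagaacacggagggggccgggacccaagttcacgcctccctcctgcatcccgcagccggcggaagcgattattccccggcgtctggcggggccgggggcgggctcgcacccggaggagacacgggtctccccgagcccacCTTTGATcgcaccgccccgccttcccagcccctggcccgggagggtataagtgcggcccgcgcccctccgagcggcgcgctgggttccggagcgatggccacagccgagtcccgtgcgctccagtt
MSX1: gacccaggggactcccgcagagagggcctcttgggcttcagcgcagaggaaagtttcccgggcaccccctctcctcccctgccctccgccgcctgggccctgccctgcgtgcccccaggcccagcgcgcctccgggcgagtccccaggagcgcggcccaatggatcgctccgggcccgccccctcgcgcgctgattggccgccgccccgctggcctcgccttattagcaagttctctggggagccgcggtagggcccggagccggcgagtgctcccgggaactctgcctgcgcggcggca
The core begins at -238 from the start in CDX2, at -214 in DACT1 and at -76 in MIXL1, and none of the 4 spellings occurs in the MSX1 window. Of the 9 Wnt pathway members that stood at least 2-fold higher with RIPK4, 6 have a promoter entry, and 3 of those 6 hold a core. NKX1-2 and RNF43 were the others without one, and CDX1, NKD1 and NOTUM are named only. Over all kept genes with an entry the share was 8.11% (776 of 9568), and over the other Wnt members it was 7 of 70. Among the 6 protein-coding genes that stood at least 2-fold lower, 3 promoters held a core as well. A match of these letters is a description of the window and says nothing of binding.

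The library labels were checked on the transfected gene. RIPK4 was read at 17.9 RPKM (1323 reads) where its plasmid was given and at 0 in every other library, 415 times the level that 3 reads would give in Vector. The exact lower 95% counting limit of the ratio to Vector was 337. In the RIPK4 library its relatives were read no higher than in Vector: RIPK1 stood at 11.2 RPKM against 12.8 in Vector, RIPK2 at 9.82 against 11.8, and RIPK3 at 0 in both. In their own libraries RIPK1 was read at 16.6 RPKM, RIPK2 at 27.4 and RIPK3 at 61.4, so the rise over Vector was smallest for RIPK1. The embryonal markers POU5F1 (13.0 to 17.2 RPKM over the 6 libraries), SALL4 (37.7 to 55.2), LIN28A (213 to 392) and PODXL (399 to 628) were well read in every library. TDGF1 was at 0 throughout and NANOG at 0.0977 to 0.234 RPKM, so those embryonal markers are absent or nearly so. Of 13 haematopoietic markers 1 was kept (CD68, 1.94 RPKM in both), with HBB at 0 in all libraries. Their levels summed to 2.92 RPKM in Vector and 3.40 in RIPK4, within 2.39 to 6.37 over the 6 libraries. The libraries held 17.25 M reads for Vector and 18.32 M for RIPK4, with the other 4 between 18.52 and 19.51 M.

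Few genes differed by much. Differences are of log2(RPKM + 1), RIPK4 minus Vector, a scale that understates changes of low genes. By that measure 47 of 11880 genes (0.396%) stood at least 2-fold higher with RIPK4 and 46 (0.387%) at least 2-fold lower. At 1.5-fold the counts were 584 (4.92%) and 366 (3.08%). Protein-coding genes made up 30 of the 47 and 6 of the 46, while small RNAs made up 14 and 40, of which 11 and 27 had under 20 reads on average in the 2 libraries. The middle gene differed by 0.05, and 55.6% of genes stood above Vector by any amount. In RNA from a whole culture, fewer cells of a type and less RNA per cell cannot be told apart.

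The differences moved with base composition. Across 11778 genes the difference followed the GC content of the transcript with a Spearman rho of 0.67, a description over genes that share 2 libraries. With genes in 5 equal bins by GC the median difference was -0.24 in the lowest bin, 0.04 in the middle bin and 0.35 in the highest. The same rho was 0.69 for Wnt3a against Vector, 0.66 for RIPK2, 0.54 for RIPK3 and -0.08 for RIPK1, and all of these share the Vector library. The median GC content was 60.4% among coding genes at least 1.5-fold higher, 39.6% among those at least 1.5-fold lower and 48.3% over all coding genes. With a smooth GC trend removed, 100 of the 537 coding genes at least 1.5-fold higher were still past 1.5-fold, as were 91 of the 287 lower. A second median, after removal of that trend, is therefore given below beside the first.

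**Figure D1:**
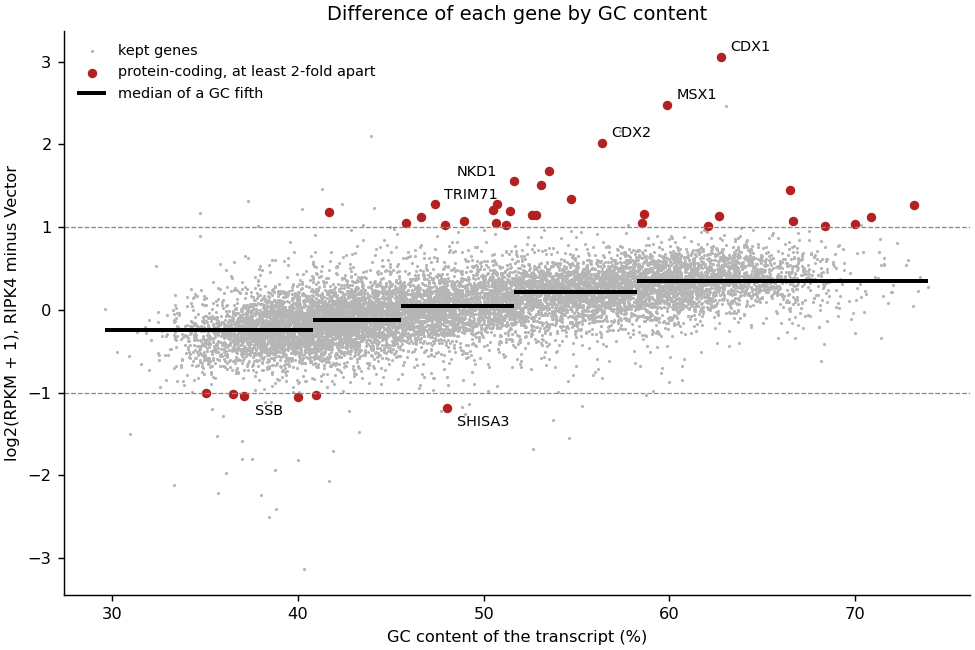
Difference of log2(RPKM + 1), RIPK4 minus Vector (vertical axis), against transcript GC content in percent (horizontal axis) for 11778 kept genes, each a grey point. Red points are protein-coding genes at least 2-fold apart (dashed lines), and black bars are the medians of 5 equal GC bins, which climb from -0.24 to 0.35; CDX1, MSX1 and CDX2 lie far above the bar of their bin.

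The place of the Vector library among the 6 was recorded for the genes past 2-fold, since it serves as the only control. Among the 30 coding genes higher with RIPK4, Vector was the lowest of the 6 libraries for 14, against 21.6% of all kept genes, and RIPK4 was the highest for 11, against 11%. For 17 of the 30, RIPK4 and Wnt3a both stood above the other 4 libraries, an arrangement seen in 17.6% of kept genes. For all 6 coding genes lower with RIPK4, Vector was the highest of the 6 libraries, against 19.3% of kept genes. Since these genes were picked for a large gap between RIPK4 and Vector, such places are favoured by the choice itself, and nothing is read from the shares beside them.

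Among protein-coding genes, the largest differences were in homeobox factors. Of 13 kept members of a group of caudal, muscle-segment and primitive streak factors, 5 stood at least 2-fold higher, none at least 2-fold lower, and the group's median was 0.31 (0.12 with the GC trend removed) beside 0.05 over all kept genes, where 0.396% were past 2-fold upward. The factors CDX1, CDX2 and MIXL1 reached 1 RPKM in RIPK4 and Wnt3a alone, so they are among the kept genes through the libraries where they are high. Over all 29 listed factors, with no filter, the median was 0.13. CDX1, a caudal homeobox factor of the posterior embryo, had 1 read in Vector (0.0327 RPKM) and 247 reads in RIPK4 (7.61 RPKM), 233 times the Vector level (95% interval from read counting, 41.3 to 9220.3). It had 18.8 RPKM in Wnt3a and 0 to 0.237 in RIPK1, RIPK2 and RIPK3. CDX1 was thus near 0 in 4 libraries and plainly read in the other 2. Its relative CDX2 stood at 0.638 RPKM in Vector, 8.48 in Wnt3a, 0.466 in RIPK1, 0.298 in RIPK2, 0.276 in RIPK3 and 5.64 in RIPK4. The RIPK4 value was 8.84-fold above Vector (5.74 to 14.2). The other 3 kinase libraries all read CDX2 below Vector.

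MSX1, a muscle-segment homeobox repressor, was the most abundant of the 5. It stood at 5.90 RPKM in Vector, 49.8 in Wnt3a, 3.71 in RIPK1, 17.4 in RIPK2, 18.2 in RIPK3 and 37.6 in RIPK4, a ratio of 6.37 to Vector (5.48 to 7.44). Here RIPK2 and RIPK3 lay between Vector and RIPK4, which was not so for CDX2, and for CDX1 their levels stayed close to 0. MIXL1, a homeobox factor of the early streak, rested on few reads, 4 in Vector and 42 in RIPK4, at 0.332 and 3.28 RPKM (9.88-fold, 3.59 to 38.0). Its level was 3.71 RPKM in Wnt3a and at most 0.676 in the 3 other kinase libraries. NKX1-2, a homeobox gene of the caudal neural plate, was the member highest in RIPK4, at 6.98 RPKM against 5.68 in Wnt3a, 2.15 in Vector and 1.48 to 2.0 in the others (3.24-fold over Vector, 2.22 to 4.84).

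Other members of the group did not share that size of difference. MSX2, the paralog of MSX1, stood at 24.0 RPKM against 18.8 in Vector, and 29.6 in Wnt3a. The Nodal antagonist CER1 was lower, at 68.9 against 91.0 RPKM, with 44.9 in Wnt3a. BMP4, a growth factor, was read at 9.22 and 9.16 RPKM. Streak genes under the filter included EOMES (0.367 RPKM in Vector, 0.569 in RIPK4), SP5 (0.0298 and 0.140, on 1 and 5 reads) and the brachyury gene T, which was at 0 in both. FGF8, a growth factor of the tail bud, also missed the filter, with 0.368 RPKM in Vector (7 reads), 1.19 in RIPK4 (24 reads) and 2.79 in Wnt3a. The set of streak genes read in these cells was therefore narrow, and the 5 homeobox genes carried its 2-fold differences.

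**Figure D2:**
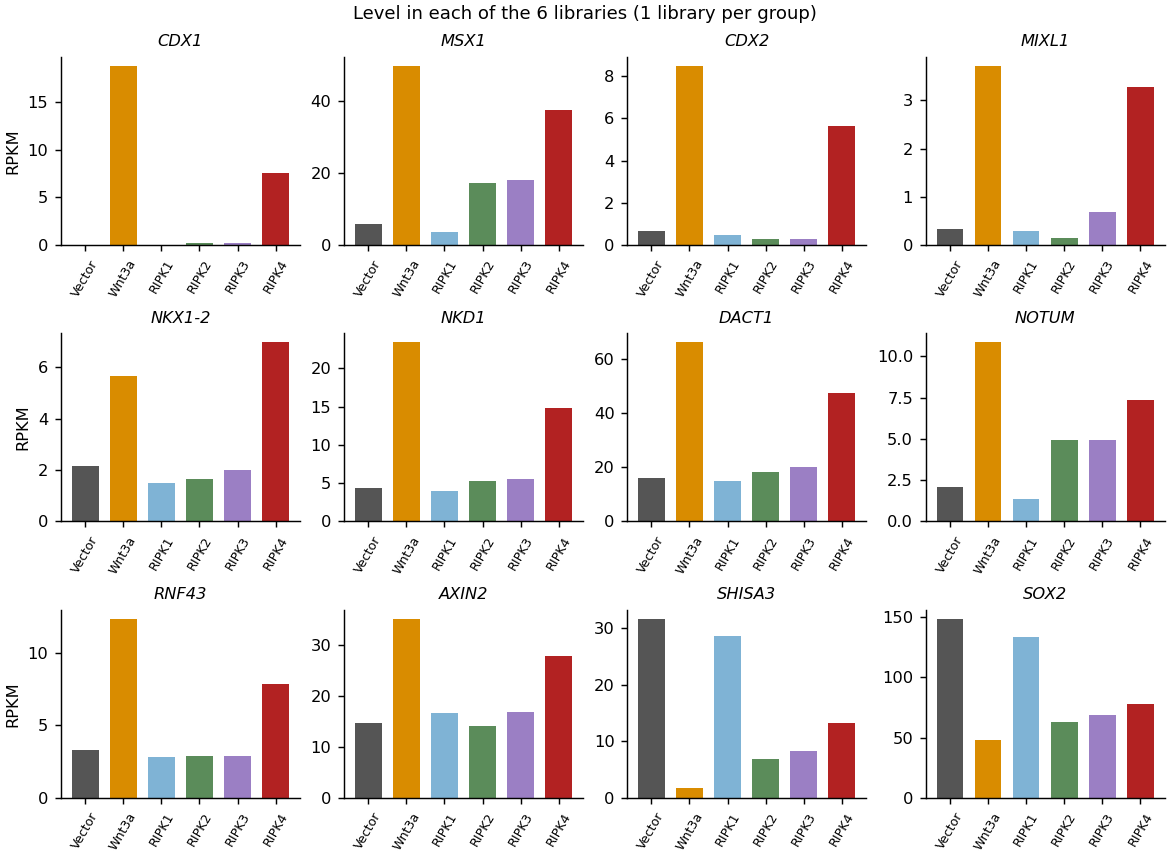
Level in RPKM (vertical axes, from 0) of 12 genes in each of the 6 libraries, with 1 bar for each library and no error, since each group has 1 library. The first 10 genes are higher in RIPK4 and Wnt3a than in Vector, as with CDX2 at 5.64 and 8.48 against 0.638 RPKM, while SHISA3 and SOX2 are lower in both.

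Feedback inhibitors of the pathway had the highest median of the gene groups when low genes were left out. Of 16 kept members 4 stood at least 2-fold higher, 1 at least 2-fold lower, and 7 and 1 passed 1.5-fold. Over all kept genes those shares were 0.396%, 0.387%, 4.92% and 3.08%. The group's median was 0.56, or 0.37 with the GC trend removed. Over all 27 listed inhibitors, with no filter, it was 0.22, below the 0.33 of collagens and matrix genes. For 11 of the 16, RIPK4 and Wnt3a both stood above the other 4 libraries, against 17.6% of all kept genes. NKD1, which binds dishevelled, had 4.39 RPKM in Vector, 23.4 in Wnt3a, 3.98 in RIPK1, 5.21 in RIPK2, 5.57 in RIPK3 and 14.8 in RIPK4. It was 3.38-fold above Vector (2.88 to 3.98), and the 3 other kinases lay close to Vector. DACT1, another protein that binds dishevelled, had 16.0 RPKM in Vector, 66.2 in Wnt3a, 14.9 to 20 in the 3 other kinase libraries and 47.6 in RIPK4 (2.97-fold, 2.78 to 3.17). NOTUM, a secreted enzyme that takes the lipid from Wnt ligands, had 2.07 RPKM in Vector, 10.8 in Wnt3a, 1.34 in RIPK1, 4.91 in RIPK2, 4.92 in RIPK3 and 7.36 in RIPK4 (3.56-fold, 2.77 to 4.63). For NOTUM, as for MSX1, RIPK2 and RIPK3 took a middle place.

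RNF43, a membrane ubiquitin ligase that removes Frizzled receptors, stood at 3.28 RPKM in Vector, 12.4 in Wnt3a, 2.82 to 2.90 in the 3 other kinase libraries and 7.84 in RIPK4 (2.39-fold, 2.11 to 2.71). Its partner ZNRF3 differed less, at 6.65 against 4.50 RPKM. NKD2, the paralog of NKD1, had 3.69 RPKM in Vector and 8.09 in RIPK4, with 9.20 in Wnt3a and 2.94 to 3.21 elsewhere. AXIN2, the scaffold of the destruction complex that Wnt signals induce, had 14.7 RPKM in Vector, 35.1 in Wnt3a, 14.1 to 16.7 in the 3 other kinase libraries and 27.8 in RIPK4 (1.90-fold, 1.77 to 2.03). The receptor gene TNFRSF19 (13.7 against 7.59 RPKM) and the membrane inhibitor APCDD1 (12.9 against 8.40) were ordered in the same way, both higher still in Wnt3a. Secreted antagonists differed less: SFRP2 was read at 347 and 320 RPKM and FRZB at 6.49 and 6.75, while DKK1 was at 0 in both libraries.

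The exception among the inhibitors was SHISA3, which holds back the maturation of Frizzled and FGF receptors. It had 31.6 RPKM in Vector, 28.6 in RIPK1, 13.3 in RIPK4, 8.27 in RIPK3, 6.76 in RIPK2 and 1.73 in Wnt3a. The RIPK4 level was 2.38-fold below Vector (2.13 to 2.66). RIPK2 and RIPK3 thus held less of this transcript than RIPK4 did, and SHISA3 was the Wnt member furthest below Vector.

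Kept upstream members differed by less than 1.5-fold on the log2(RPKM + 1) scale, though not all did by the plain ratio of RPKM. All 8 kept ligand and ligand-release genes were within 1.5-fold of Vector on the log2(RPKM + 1) scale, with a median of 0.43 (0.21 with the GC trend removed). WNT3 stood at 10.3 RPKM against 7.09, WNT10B at 7.69 against 4.98, and the Wnt carrier WLS at 95.8 against 73.5. WNT5A, a ligand of noncanonical signalling, was the member below Vector, at 4.14 against 5.31. WNT5B missed the filter at 0.156 RPKM in Vector (8 reads) and 0.714 in RIPK4 (39 reads). Of 12 kept receptors none passed 1.5-fold, with a median of 0.17 (0.09 with the GC trend removed). The receptor tyrosine kinase ROR2 stood highest over Vector, at 33.8 against 22.7 RPKM, and the R-spondin receptor LGR4 furthest below, at 37.1 against 53.8.

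Inside the cell, none of 22 kept genes of dishevelled and the destruction complex passed 1.5-fold on the log2(RPKM + 1) scale. That scale understates changes of low genes. The group's median was 0.16 (0.03 with the GC trend removed). DVL1, DVL2 and DVL3, the proteins that RIPK4 has been linked to, were read at 14.8, 24.8 and 26.1 RPKM against 10.4, 18.6 and 23.7 in Vector. CTNNB1, which encodes beta-catenin, stood at 120.04 against 97.6 RPKM, and GSK3B at 17.4 against 17.3. Of 17 kept TCF/LEF factors and nuclear partners 3 passed 1.5-fold, all higher, against 4.92% of all kept genes. With the GC trend removed 0 of the 17 did, and the median of 0.27 became 0.03. TCF7 had 4.59 RPKM in Vector, 10.4 in Wnt3a, 4.19 to 5.16 in the 3 other kinase libraries and 7.60 in RIPK4 (1.66-fold, 1.46 to 1.88). LEF1 had 2.75 RPKM in Vector, 7.31 in Wnt3a and 4.73 in RIPK4, with 2.95, 3.92 and 4.09 in RIPK1, RIPK2 and RIPK3. The corepressor TLE3 stood at 15.7 against 10.1 RPKM, and TCF7L2 was lower, at 13.0 against 17.1.

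**Figure D3:**
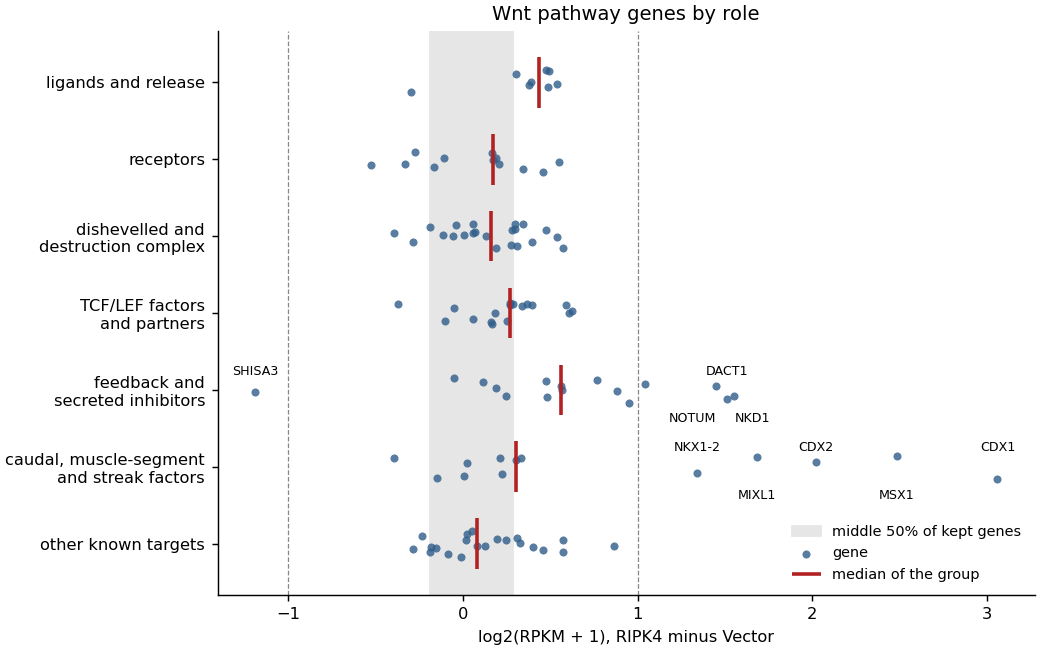
Difference of log2(RPKM + 1), RIPK4 minus Vector (horizontal axis), of each kept Wnt pathway gene, in rows by role (vertical jitter has no meaning). Red bars are group medians, from 0.56 for feedback inhibitors to 0.08 for other known targets, the grey band holds the middle 50% of all kept genes, and dashed lines mark 2-fold.

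Widely quoted Wnt targets outside those groups were close to Vector. Of 21 kept members 1 passed 1.5-fold, the ephrin receptor EPHB3 (3.13 against 1.26 RPKM, 2.48-fold, 1.94 to 3.18), and the median was 0.08 (0.00 with the GC trend removed). CCND1, a cyclin of the entry to S phase, stood at 211 against 159.9 RPKM, with 246 in Wnt3a, 246 in RIPK2 and 244 in RIPK3. MYC was lower, at 12.3 against 15.2 RPKM, and the adhesion receptor CD44 was nearly level, at 22.4 against 22.5 RPKM. Over all 109 kept Wnt pathway genes, 9 stood at least 2-fold higher and 1 lower, and 16 and 1 passed 1.5-fold. The median was 0.26, or 0.07 with the GC trend removed. These counts of 9 and 16 read against backgrounds of 0.396% and 4.92% of all kept genes. For all 16 genes at least 1.5-fold higher, both RIPK4 and Wnt3a stood above the other 4 libraries. Wnt3a was the higher of the 2 for 15 of them, with NKX1-2 the exception. The same arrangement held for 310 of all 537 coding genes at least 1.5-fold higher, beside 17.6% of kept genes. Such an arrangement is favoured by the choice of genes for a gap to Vector, and nothing is read from it.

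A wider set was drawn after the values were seen: genes for which RIPK4 and Wnt3a both stood at least 1.5-fold above each of the other 4 libraries. There were 35 such genes (0.295% of those kept), all protein coding, and 10 of them belong to the Wnt groups. Those groups hold 109 of the 11880 kept genes. Both the set and the groups were chosen with values known, so nothing is read from the overlap. Wnt3a was the higher of the 2 libraries for 27 and RIPK4 for 8. Several are transcription factors. HES6, a HES family factor of neural progenitors, had 5.42 RPKM in Vector, 11.9 in Wnt3a, 4.66 to 5.49 in the 3 other kinase libraries and 12 in RIPK4 (2.22-fold, 1.83 to 2.70). SOX8 stood at 2.58 RPKM in RIPK4 against 0.799 in Vector and 3.74 in Wnt3a. SOX8 thus had Wnt3a above RIPK4, as NKD1 and AXIN2 did, while HES6 was nearly level in the 2.

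Surface and secreted proteins were also in the set. NRTN, the growth factor neurturin, had 4.36 RPKM in Vector, 7.54 in Wnt3a, 3.61 to 4.55 in the 3 other kinase libraries and 9.99 in RIPK4 (2.29-fold, 1.77 to 2.99). FGFR4, a fibroblast growth factor receptor, stood at 18.3 RPKM in RIPK4, 16.8 in Wnt3a, 10.7 in Vector and 7.98 to 10.6 in the others. HES6, NRTN and FGFR4 were thus among the 8 genes for which RIPK4 exceeded Wnt3a. The proteoglycan SDC1 (5.11 against 2.96 RPKM) and the tetraspanin CD9 (6.16 against 3.48) were higher still in Wnt3a, at 7.19 and 7.63. TUBB2A, a neural beta-tubulin, was the most abundant, at 829 RPKM in RIPK4, 1009.8 in Wnt3a, 446 in Vector and 415 to 451 in the others. TUBB2A has a near-identical copy in TUBB2B, so its reads are uncertain. DHCR7, which makes the last step to cholesterol, stood at 38.6 RPKM in RIPK4, 38.7 in Wnt3a, 23.2 in Vector and 16.9 to 24.3 in the others.

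**Figure D4:**
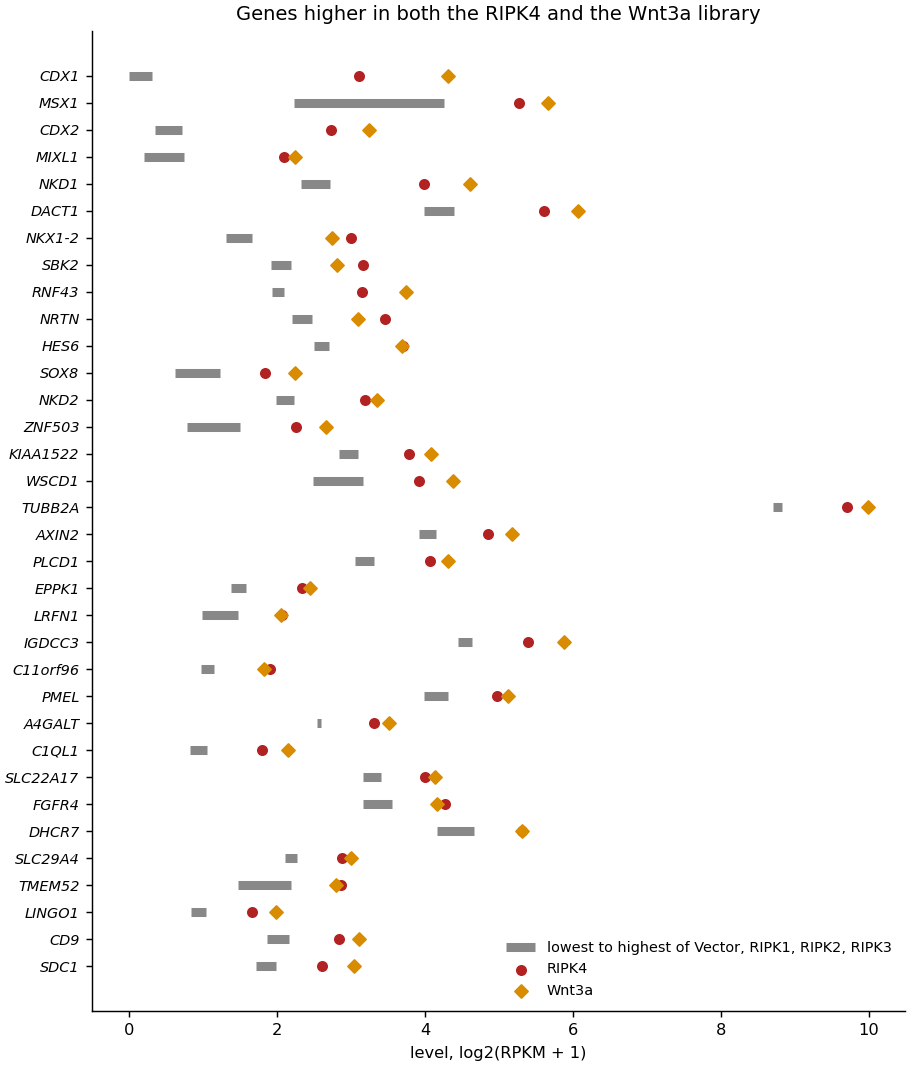
Level as log2(RPKM + 1) (horizontal axis) of 34 of the 35 genes for which both RIPK4 (red circle) and Wnt3a (orange diamond) stood at least 1.5-fold above the other 4 libraries, whose lowest to highest level is the grey bar. By construction both symbols lie to the right of each bar; the diamond lies further right for 26 of those drawn and the circle for 8.

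The remaining coding genes at least 2-fold higher had other orders of libraries. For TRIM71, a ubiquitin ligase and RNA-binding protein of stem cells, Vector stood apart at 31.4 RPKM, against 52.6 in RIPK3, 53.7 in RIPK1, 55.5 in RIPK2, 59.4 in Wnt3a and 77.5 in RIPK4. The ratio to Vector was 2.47 (2.33 to 2.61), and the lowest of the other 4 was itself well above Vector. EIF2C2, the older name of the Argonaute gene AGO2, had 5.04 RPKM in Vector, 12.2 in RIPK4 and 9.66 to 11.7 in the other 4. SGK196, a kinase of dystroglycan glycosylation now called POMK, had 4.20 RPKM in Vector, 11.6 in RIPK4 and 8.70 to 10.5 in the other 4. PTPN14, a phosphatase, had 3.53 RPKM in Vector, 8.38 in RIPK4 and 6.13 to 7.43 in the other 4. SFT2D2 stood at 3.59 RPKM in Vector, 6.69 to 11.3 in the other 4 and 9.45 in RIPK4. For these genes the 2-fold difference sets Vector apart from the other libraries rather than RIPK4 from the rest.

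OASL, an antiviral 2′-5′-oligoadenylate synthetase relative, had 3.47 RPKM in Vector, 2.61 in Wnt3a, 0.845 in RIPK1, 9.21 in RIPK4, 23.5 in RIPK3 and 25.8 in RIPK2. The metallothionein MT1A (8.97 against 3.31 RPKM, 95 and 33 reads), the cilia gene CCDC19 (10.4 against 4.17) and the lactate carrier SLC16A3 (8.55 against 3.35) were likewise higher in at least 1 library other than RIPK4. PREX1, a Rac exchange factor, stood at 16.2 RPKM against 7.28, with 21.4 in Wnt3a. TBC1D16, a Rab GTPase-activating protein, stood at 18.1 against 7.58, with 19.1 in Wnt3a and 12.3 to 14.1 in the other 3. METRN, a secreted protein of glia, stood at 38.6 against 17.7, the highest of the 6 libraries. SBK2, a kinase gene, was likewise highest in RIPK4, at 7.93 against 3.10 RPKM in Vector and 6.04 in Wnt3a. The values of RPL19P12, a copy of a ribosomal protein gene (3.13 against 0.665 RPKM) and of HNRNPCL1 (1.78 against 0.367) are uncertain, since reads can be shared with near-identical genes.

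Among Notch pathway genes and HES repressors 5 of 13 kept members stood at least 1.5-fold higher and none lower, with a median of 0.30 (0.21 with the GC trend removed), against 4.92% and 3.08% of all kept genes. The receptor NOTCH3 had 52.6 RPKM against 30.1 in Vector and NOTCH1 11.2 against 6.88, with 54.1 and 11.5 in Wnt3a. The ligand JAG2 had 1.63 against 0.552 RPKM. With the GC trend removed 1 of the 13 stood at least 1.5-fold higher and 1 lower. In cholesterol and fatty acid synthesis 4 of 34 kept members passed 1.5-fold, all higher, and 1 did with the GC trend removed. The median was 0.19 (0.13 after that removal). FASN, the fatty acid synthase, stood at 97.7 RPKM against 53.1, and LSS, lanosterol synthase, at 43.1 against 25.7. Both RIPK4 and Wnt3a stood above the other 4 libraries for 18 of the 34 sterol and fatty acid genes, against 17.6% of all kept genes. RIPK2 and RIPK3 had group medians of -0.36 and -0.22 against the same Vector library, beside 0.10 for RIPK1.

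Collagens and other matrix genes stood higher as a group. Of 31 kept members 7 passed 1.5-fold, all higher, against 4.92% of all kept genes, with a median of 0.43, or 0.20 and 2 members with the GC trend removed. Against the same Vector library the group's median was 0.46 in Wnt3a, 0.45 in RIPK2, 0.43 in RIPK3 and 0.01 in RIPK1. The basement membrane proteoglycan HSPG2 had 8.02 RPKM against 3.61 in Vector, AGRN 112.0 against 62.1 and LAMA5 15.8 against 9.12. The fibrillar collagen COL1A1 had 52.8 against 32.6, with 60.5 in Wnt3a and 82.6 and 83.0 in RIPK2 and RIPK3. Markers of fibroblasts moved alongside, with a median of 0.28 over 10 of 14 kept (0.06 with the GC trend removed), and they share collagen genes with this group. Their levels summed to 2337 RPKM in Vector and 2493 in RIPK4, within 2264 to 2958 over the 6 libraries, while DCN was at 0 in every library. Endothelial markers had a median of 0.33 over 8 of 13 kept (0.17 with the GC trend removed), with ERG and EMCN at 0 throughout, and summed to 79.3 RPKM in Vector and 89.7 in RIPK4 within a range of 79.3 to 127. Markers of trophoblast and extraembryonic endoderm had a median of 0.10 over 4 of 16 kept (-0.13 with the GC trend removed). Their sum was 21.5 RPKM in Vector and 23.8 in RIPK4, with 17.2 in the lowest of the 6 libraries. The part of such cells in the result was not tested.

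Stress pathways had small median differences. Of 47 kept genes of the integrated stress and unfolded protein responses 5 passed 1.5-fold, all higher, against 4.92% of all kept genes. With the GC trend removed none did, and the median of 0.16 became 0.10. The chaperone cofactor SDF2L1 stood at 30.2 RPKM against 15.4, and the pseudokinase TRIB3 at 4.45 against 2.28. NF-kB targets and subunits had a median of 0.14 over 24 kept (-0.05 with the GC trend removed). Of the 24, 1 stood at least 1.5-fold higher, against the same 4.92%. It was the chemokine CCL5, at 2.89 against 0.992 RPKM. CCL5 was 7.77 RPKM in RIPK2 and 8.50 in RIPK3. Immediate early and ERK feedback genes had a median of 0.13 over 29 kept, none past 1.5-fold (-0.06 with the GC trend removed). Genes of RIP kinase partners and cell death had a median of 0.05 over 26 kept (0.01 with the GC trend removed), none past 1.5-fold. Epidermal and RIPK4-linked genes had a median of 0.19 over 13 kept (0.18 with the GC trend removed). Of these 13, 12 stood above Vector, none past 1.5-fold on the log2(RPKM + 1) scale, where 55.6% of all kept genes were above. The 1 member below was KRT10, a suprabasal keratin, at 5.49 against 9.22 RPKM. GRHL3, an epidermal transcription factor, stood at 5.63 against 4.11.

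Interferon-stimulated genes were split. Of 45 kept members 7 stood at least 1.5-fold higher and 1 lower, against 4.92% and 3.08% of all kept genes. Of the same 45, 23 were above and 22 below Vector, where 55.6% of all kept genes were above, and the median was 0.02. Against the same Vector library the medians were -0.53 for Wnt3a, -1.37 for RIPK1, 0.63 for RIPK2 and 0.78 for RIPK3. ISG15, a ubiquitin-like antiviral protein, had 1344.7 RPKM in RIPK4, 849 in Vector, 882 in Wnt3a, 209 in RIPK1, 1546.6 in RIPK2 and 1603 in RIPK3. IFIT1, which binds foreign RNA caps, went the other way, with 102 RPKM in RIPK4, 152 in Vector, 31.2 in Wnt3a, 29.1 in RIPK1, 196 in RIPK2 and 239 in RIPK3. XAF1 was the member furthest below Vector, at 4.83 against 9.14 RPKM. For ISG15, IFIT1 and XAF1 alike, RIPK4 lay between RIPK1 and the pair of RIPK2 and RIPK3. The median GC-corrected difference was -0.04, and 2 members then stood at least 1.5-fold higher.

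**Figure D5:**
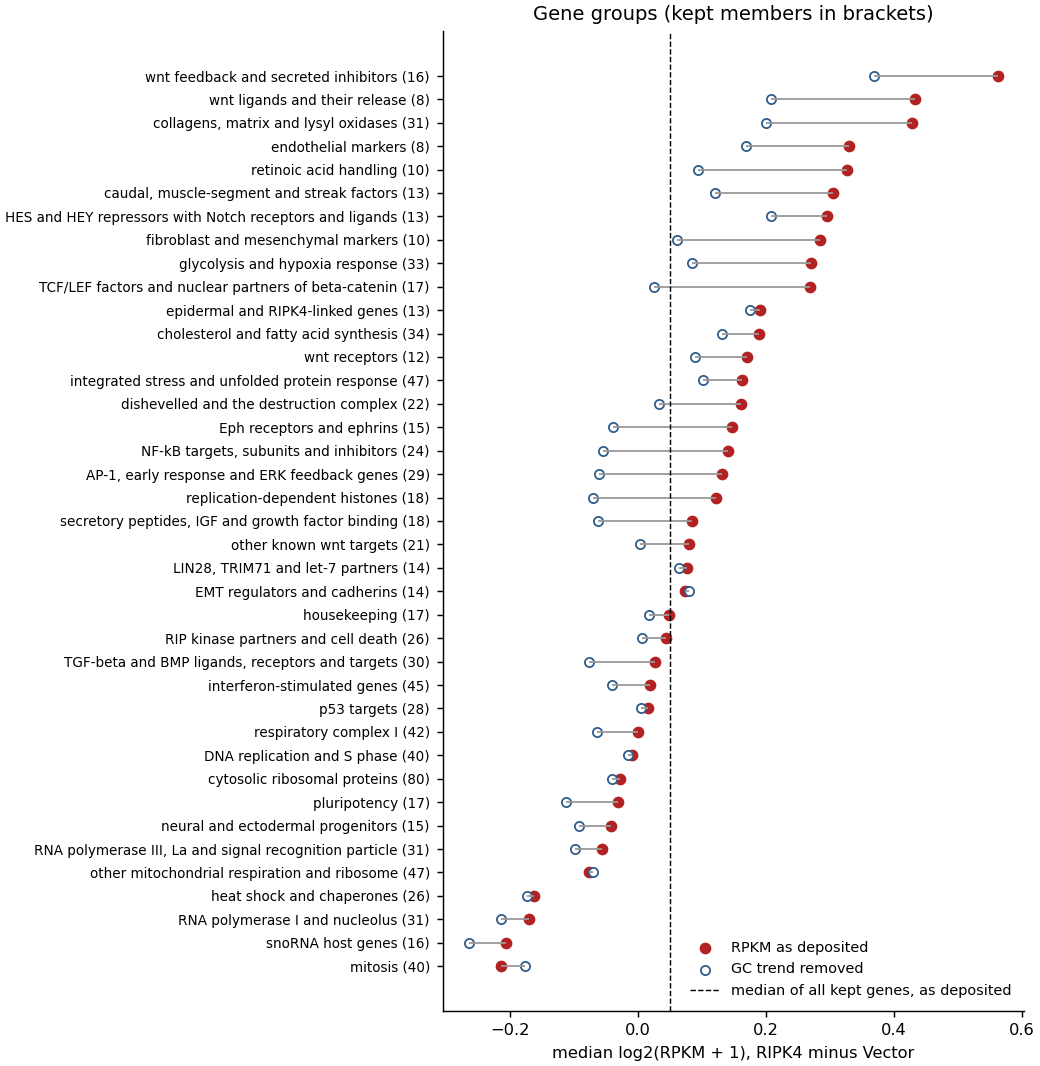
Median difference of log2(RPKM + 1), RIPK4 minus Vector (horizontal axis), of each gene group with at least 8 kept members (number in brackets), as deposited (red) and with the GC trend removed (open blue). Feedback inhibitors of Wnt lie furthest right in both, at 0.56 and 0.37, and mitosis, at -0.21, furthest left as deposited.

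Pluripotency genes had a median of -0.03 over 17 kept (-0.11 with the GC trend removed). The log2(RPKM + 1) scale understates changes of low genes. On it, 1 of the 17 stood at least 1.5-fold lower and none higher, against 3.08% and 4.92% of all kept genes. By the plain ratio of RPKM, embryonal markers of low level were past 1.5-fold lower as well. The 1 gene past 1.5-fold on that scale was SOX2, a core factor of stem and neural progenitor cells. It had 149 RPKM in Vector, 133 in RIPK1, 78.1 in RIPK4, 68.5 in RIPK3, 63.2 in RIPK2 and 48.1 in Wnt3a. The RIPK4 ratio to Vector was 0.53 (0.50 to 0.55). POU5F1 was read at 15.5 RPKM against 13.0, and PRDM14, a repressor of differentiation, at 44.9 against 56.8. SOX2 thus had the order of libraries seen in SHISA3, with RIPK4 below Vector and RIPK1 and above the other 3.

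The coding genes at least 2-fold lower, besides SHISA3, were SSB, SRP9, CCDC58, TAF1D and NDUFA5. SSB encodes La, which binds the ends of RNA polymerase III transcripts; it had 171 RPKM in Vector, 138 in RIPK1, 81.6 in RIPK4, 78.5 in RIPK3, 69.0 in Wnt3a and 63.8 in RIPK2. Vector was 2.09-fold above RIPK4 (2.0 to 2.19). SRP9, a part of the signal recognition particle, had 18.5 RPKM in Vector and 8.48 in RIPK4, with 11.5 in RIPK1 and 5.40 to 8.63 in the other 3. TAF1D, of the RNA polymerase I initiation complex, had 45.4 against 22.0 RPKM, and NDUFA5, of respiratory complex I, 13.7 against 6.30. CCDC58, now called MIX23, had 44.1 against 21.0 and was the 1 of the 6 that was lowest in RIPK4, against 5.84% of kept genes. For the other 5 at least 1 further library stood below RIPK4. All 6 transcripts but SHISA3 are low in GC, and with the GC trend removed SSB differed by -0.86, SRP9 by -0.77 and TAF1D by -0.73, each under 2-fold, while SHISA3 differed by -1.22.

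Around these genes, 6 of 31 kept genes of RNA polymerase III, La and the signal recognition particle were at least 1.5-fold lower and none higher, against 3.08% of all kept genes, with a median of -0.05 (-0.10 with the GC trend removed). POLR3G, the polymerase III subunit of stem cells, had 50.2 RPKM in Vector, 40.2 in RIPK1, 24.8 in RIPK4, 20.5 in RIPK3, 15.8 in RIPK2 and 14.1 in Wnt3a. Genes of RNA polymerase I and the nucleolus had a median of -0.17 over 31 kept (-0.21 with the GC trend removed), with 2 at least 1.5-fold lower, TAF1D and NOP58 (52.6 against 96.2 RPKM). Heat shock and chaperone genes had a median of -0.16 over 26 kept (-0.17 with the GC trend removed), with HSPE1, a mitochondrial chaperonin, at 63.2 against 126 RPKM. Mitotic genes had the lowest median, -0.21 (-0.18 with the GC trend removed). Of 40 kept members 30 were below Vector, where 5269 of all 11880 kept genes were below. By at least 1.5-fold 4 were lower, against 3.08% of all kept genes, and 0 with the GC trend removed. Against the same Vector library the group's median was -0.31 in Wnt3a, -0.36 in RIPK2, -0.30 in RIPK3 and 0.06 in RIPK1. HMMR, a spindle protein, stood at 20.9 against 36.0 RPKM, and the kinetochore gene NUF2 at 12.7 against 20.7. DNA replication genes, in contrast, had 19 members above and 21 below Vector, with a median of -0.01 before and after removal of the trend.

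Small RNAs supplied most of the large differences downward, on few reads. Of 175 kept, 40 stood at least 2-fold lower and 14 higher, against 0.387% and 0.396% of all kept genes. Their median was -0.30. Under 20 reads on average in the 2 libraries were found for 27 of the 40 and 11 of the 14. The largest difference downward was in SNORD42B, a nucleolar guide of RNA methylation, with 9 reads in Vector (7.79 RPKM) and 0 in RIPK4. SNORA32 had 30 reads against 5 (14.4 and 2.26 RPKM), with 1.78 to 8.14 RPKM in the other 4 libraries. RMRP, the RNA of the mitochondrial RNA processing enzyme, had 0 reads in Vector and 22 in RIPK4 (4.53 RPKM), with 3.48 to 4.07 RPKM in the others, so here Vector stood apart. Genes that host snoRNAs in their introns had a median of -0.21 over 16 kept (-0.26 with the GC trend removed), with SNHG3 at 13.1 against 25.4 RPKM.

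Few genes set the RIPK4 library apart from all the others. A single gene, the pseudogene CATSPER2P1, stood at least 1.5-fold above each of the other 5 libraries (0.00842% of kept genes), at 12.9 RPKM against 6.25 to 8.04. No coding gene did. Below all others by that margin were 11 genes (0.0926%), all of them snoRNAs, and SNORD73A had the most reads among them, 16 in RIPK4 and 26 to 36 in the others. By the same count Vector had 29 above and 26 below, RIPK2 41 and 4, RIPK1 6 and 49, Wnt3a 18 and 29, and RIPK3 1 and 9. Apart from its own transcript, the coding genes with large differences in the RIPK4 library were thus at a level also reached, within 1.5-fold on the log2(RPKM + 1) scale, in at least 1 other library.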

How the data were processed

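RNA of PA-1 cells was sequenced in 6 libraries, 1 for each label. Per the file headers, the authors deposited RPKM for each gene with 1 column for each library, to 5 significant digits. GSNAP, DESeq and the build hg19 are listed in the submitters' processing notes, with no version or role. Annotation, counting rule and use of strand: not given in the sources used here. Members and gene lists were chosen with earlier results of these data known, so no list is independent support.

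Genes with a mean of at least 1 RPKM were kept, and differences are of log2(RPKM + 1). Genes named were taken from the 20 largest differences each way past 2-fold, not all of which are named. For small RNAs the 5 largest each way were used, and unnamed transcripts were counted only. Also named are members of 42 lists by size of difference, and further genes and list members chosen after their values were seen. Read numbers were recovered from the RPKM as whole reads that fit all 6 libraries for lengths of 15 to 30000 bases, which gave 1 solution for 11270 kept genes; 598 took the length nearest the reference and may be off by a factor. The step was tested on simulated data. Ratios are of RPKM, with exact binomial 95% intervals that cover counting error only. GC content came from GENCODE 29 transcripts and classes and promoters from RefSeq. The GC trend was a lowess curve (fraction 0.3). Python 3.11.15 with pandas, scipy and statsmodels was used. Alternatives were other pseudocounts and filters, rescaling by median ratios, GC removal and coding genes alone, and, chosen after seeing the data, the RIPK1 library as control and a minimum of 20 reads. Values of some genes are not reported here, though these genes stay in all counts and medians.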

Additional observations from a re-analysis of the deposited data

How the results depend on the processing

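No paired analysis was possible because each group has 1 library, and for the same reason no replicate could be left out. The counts of genes past a fold depended on the settings. At least 2-fold higher were 47 genes as reported, 143 with a pseudocount of 0.1, 72 with 0.5, 27 at a mean RPKM of at least 5, 30 among coding genes alone and 86 against RIPK1. At least 2-fold lower were 46, then 78 with a pseudocount of 0.1, 28 at a mean of 5, 6 among coding genes, 22 against RIPK1 and 19 with at least 20 reads. At 1.5-fold the 584 higher became 994 with a pseudocount of 0.1 and 178 with the GC trend removed, and the 366 lower became 212 with the trend removed and 188 against RIPK1. Rescaling by median ratios shifted the differences by a median of -0.06, less for low genes, and gave 391 higher and 515 lower at 1.5-fold, which turned the balance. RIPK4 stood above all other libraries for 6 genes and below for 19 with a pseudocount of 0.1, and below for 2 at 2-fold. Of 41 group medians 10 changed sign with the GC trend removed, 6 on rescaling, 5 against RIPK1, 3 of 39 at a mean of 5 and 1 with no filter. Those moving from at least 0.1 to at least 0.05 on the other side of 0 were, with the trend removed, NF-kB genes (-0.0538), early response genes (-0.0598) and histones (-0.0694), at a mean of 5, histones (-0.0789), and against RIPK1, Wnt receptors (-0.0890). The medians of Wnt feedback inhibitors (0.22 to 0.64) and of streak factors (0.12 to 0.35) kept their sign under all 9 alternatives. Coding genes alone and the minimum of 20 reads left both exactly as reported (0.56 and 0.31), so those settings say nothing of their stability. The interferon median lay between -0.04 and 0.02 under the others and at 1.19 against RIPK1. Of the ratios of named genes, 6 of 246 crossed 1 with the trend removed and 2 of 249 on rescaling, CD68 in both. Low genes are limited by depth: MIXL1 rested on 4 reads in Vector and CDX1 on 1.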

Other observations

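Retinoic acid genes differed in both directions. CYP26A1, which breaks down retinoic acid, had 7.74 RPKM in Vector, 4.42 in RIPK4 and 0.218 in Wnt3a, with 7.07 to 9.24 in the other 3 libraries. The carrier CRABP2 had 121 RPKM in Vector, 171 in RIPK4 and 269 in Wnt3a, with 98.1 to 116 in the others. Both genes thus stood between Vector and Wnt3a in the RIPK4 library. Among Eph receptors and ephrins 3 of 15 kept genes passed 1.5-fold upward, against 4.92% of all kept genes. They were EPHB3, EFNA3 (5.57 against 3.10 RPKM) and EPHA2 (20.7 against 12.8). With the GC trend removed 0 of the 15 did, and the group's median went from 0.15 to -0.04. EPHA7 was lower, at 10.8 against 16.2 RPKM. IGFBP4, an IGF-binding protein, stood at 29.8 against 17.3 RPKM. IGFBP6 had 2.77 against 1.14 RPKM and 15.8 and 16.1 in RIPK2 and RIPK3.

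In glycolysis and the hypoxia response 3 of 33 kept genes passed 1.5-fold, all higher, against 4.92% of all kept genes. The group's median was 0.27 (0.09 with the GC trend removed), and after that removal 1 member stood at least 1.5-fold higher and 1 lower. The glucose carrier SLC2A1 had 209 RPKM against 135, and P4HA2, a collagen prolyl hydroxylase, 5.35 against 2.83. Cytosolic ribosomal proteins, many of which have near-identical copies, had 40 members above and 40 below Vector. The 17 housekeeping genes had a median of 0.05, that of all kept genes, and ranged up to RPLP0 at 478 against 329 RPKM.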
